A study of Mus musculus with 22 samples.

Results

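The FOS and JUN genes encode the subunits of AP-1, and 7 of them were followed here: Fos, Fosb, Fosl1 and Fosl2 on the FOS side, and Jun, Junb and Jund on the JUN side. They were taken from the deposited table of normalized counts by their gene symbols, and all 7 asked for were among its 11208 genes. The table came from RNA sequencing of NIH/3T3 cells, an established line of mouse embryonic fibroblasts, carrying a stably integrated construct that doxycycline switches on. In the E2F1 line the construct encodes the transcription factor E2F1, and in the EV line it is an empty vector. All 11 groups were starved for 48 h in medium with 0.25% heat-inactivated serum. The E2F1 line was sampled at 0 h and after 2, 6 and 12 h of 500 ng/ml doxycycline. The EV line was sampled at the same times of the same dose, and also after 2, 6 and 12 h of 10% heat-inactivated serum. Each group had 2 libraries, 22 in all. The EV 0 h libraries were the starting point of both EV series. The promoter in the construct, and whether a line is 1 clone, are not given in the sources used here. By its design text the study asked how E2F1 and serum bring resting cells back into the cell cycle.

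AP-1 is a pair of leucine zipper proteins. JUN proteins pair with each other or with a FOS protein, whereas FOS proteins need a JUN partner, and the pair binds a short palindrome in promoters and enhancers. In fibroblasts, Fos, Fosb, Jun and Junb are textbook immediate early genes of the serum response, Fosl1 and Fosl2 follow as longer-lasting members, and Jund is known as the member found in resting cells. JUNB and JUND are described as weaker activators than JUN or as antagonists of it in some settings, and FOSL1 and FOSL2 lack the strong activation domain of FOS.

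Values are normalized counts, rounded by the authors to whole numbers, and the depth before scaling is unknown. Totals ran from 34014608 to 46057140 per library. Of 10 fibroblast markers 9 were in the table, at 671082 to 1370192 normalized counts in sum per library, and 0 of 13 markers of epithelial, blood, endothelial and muscle cells were. E2f1 changed by log2 values of -0.02, 1.15 and 0.73 after 2, 6 and 12 h of doxycycline in the E2F1 line (limma, adjusted p 0.946, 9.61e-08 and 1.65e-05). The table counts the mouse gene, so a construct of another sequence need not be counted there. The 2 h libraries stood apart. For 6 genes at least 8-fold higher in every E2F1-line than in every EV-line library outside the 2 h ones, the E2F1 2 h libraries lay at a median of 54.4% and 51.1% of the way from the EV to the E2F1 level, those of the EV line at 8.39% and 8.12%, and the EV 2 h serum libraries at 3.67% and 3.34%. Ddx3y, one of them, had 329 and 316 normalized counts in the E2F1 2 h libraries, 580 and 521 in the E2F1 0 h libraries, 103 and 71 in the EV 2 h doxycycline libraries, 132 and 170 in the EV 2 h serum libraries and 9 and 4 in the EV 0 h libraries. The 6 genes varied widely around these medians, from 35.1% to 90.1% and from 29.4% to 101% in the E2F1 2 h libraries. In the EV 2 h serum libraries they ran from -1.84% to 23.1% and from -0.369% to 30.1%, with Ddx3y the highest in both. The part of these offsets in the 2 h results, serum included, was not tested. No label says that replicates came from separate cultures, so p-values measure the spread between these libraries, which may be technical. Changes are given as differences of log2(value + 1), so those of low genes such as Fos are understated, and adjusted p-values are from limma.

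The promoters of 5 members that all rose at 2 h of serum are shown, because AP-1, serum and E2F act through short sites of this kind. Each is the 250 bases before the RefSeq start on GRCm38.p6, written 5′ to 3′ on the gene's strand, and 6 of the 7 members had an entry. Capitals mark the sites found.
Fos, chr12:85473640-85473889, + strand: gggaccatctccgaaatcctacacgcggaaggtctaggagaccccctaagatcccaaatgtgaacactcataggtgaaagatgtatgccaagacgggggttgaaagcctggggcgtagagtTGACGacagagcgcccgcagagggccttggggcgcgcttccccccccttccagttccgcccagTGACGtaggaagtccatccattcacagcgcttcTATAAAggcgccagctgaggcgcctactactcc
Fosb, chr7:19310046-19310295, - strand: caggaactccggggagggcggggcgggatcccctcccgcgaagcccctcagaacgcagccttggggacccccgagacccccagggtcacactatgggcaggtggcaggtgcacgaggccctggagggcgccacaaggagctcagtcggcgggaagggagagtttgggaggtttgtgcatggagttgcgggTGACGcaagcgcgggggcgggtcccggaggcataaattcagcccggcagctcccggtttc
Jun, chr4:95052223-95052472, - strand: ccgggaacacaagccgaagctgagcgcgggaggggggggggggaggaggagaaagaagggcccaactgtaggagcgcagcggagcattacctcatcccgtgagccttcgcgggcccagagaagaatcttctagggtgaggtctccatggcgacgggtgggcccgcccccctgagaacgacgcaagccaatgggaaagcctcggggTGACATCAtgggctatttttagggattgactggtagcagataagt
Junb, chr8:84978749-84978998, - strand: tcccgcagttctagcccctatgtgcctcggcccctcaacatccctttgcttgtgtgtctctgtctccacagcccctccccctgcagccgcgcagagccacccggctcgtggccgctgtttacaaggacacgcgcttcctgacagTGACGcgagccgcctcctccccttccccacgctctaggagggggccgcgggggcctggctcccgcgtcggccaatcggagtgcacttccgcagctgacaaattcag
Fosl2, chr5:32136222-32136471, + strand: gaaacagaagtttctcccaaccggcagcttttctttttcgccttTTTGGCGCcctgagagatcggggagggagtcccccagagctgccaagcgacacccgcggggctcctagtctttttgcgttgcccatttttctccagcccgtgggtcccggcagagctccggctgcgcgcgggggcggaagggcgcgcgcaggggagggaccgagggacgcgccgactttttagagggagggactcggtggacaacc

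In the Fos window the capitals are TGACG, the core of a cyclic AMP response element, starting 129 and 66 bases before the start, and a TATA box, TATAAA, starting 33 bases before it. Fosb has TGACG starting 60 bases and Junb 106 bases before the start. Jun has TGACATCA, a variant AP-1 site that JUN and ATF2 are known to bind, starting 45 bases before it. Fosl2 has TTTGGCGC, one of the E2F site forms searched, starting 206 bases before the RefSeq start. That start lies 671 bases from the GENCODE M21 one, so the window is not next to both. The RefSeq start of Jund lies 1210 bases from its GENCODE start, its window held none of the sites, and it is not printed. Searches covered both strands, except for TATAAA, which was read on the gene's strand only. The 250 bases before the start were searched in the same way in all 32851 RefSeq windows. TGACG occurred in 17.8% of them, TGACNTCA in 7.49%, TATAAA in 7.59% and the AP-1 palindrome TGANTCA in 6.75%. The E2F forms TTTCCCGC, TTTGGCGC, TTTCGCGC and TTTGCCGC together occurred in 1.86%, and the CArG box, which serum response factor binds, in 1.47%. A TGACG can lie within a TGACNTCA, so those counts overlap. None of the 6 windows held TGANTCA or the CArG box. Bases outside the 250 were not searched, so sites farther from the start are not seen. A match describes letters only.

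The other end of the transcript also bears on early genes, since AU-rich stretches in a 3′ untranslated region are known to speed mRNA decay. The 9-base core TTATTTATT was in 2 of 7 members, Fos and Fosl2, and in 7.86% of 10205 genes of the table with an annotated region. The windows are given 5′ to 3′ with the core in capitals.
Fos, bases 645 to 673 of the region: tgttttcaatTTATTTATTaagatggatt
Fosl2, bases 3682 to 3710 of the region: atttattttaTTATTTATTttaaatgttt

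The shorter pentamer ATTTA occurred 4.91 times per kb in Fos, 4.12 in Junb and 3.24 in Jun, against a median of 1.42 over genes. Jund had 1.88, Fosl2 1.72, Fosl1 1.57 and Fosb 0.466 per kb. The counts come from GRCm38 with GENCODE M21 transcripts.

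At rest the 7 genes spanned a wide range. On GRCm38 they lie on chromosome 12 (Fos, ENSMUSG00000021250.13, 85473890 to 85477273), 7 (Fosb, ENSMUSG00000003545.3, 19302696 to 19310051), 19 (Fosl1, ENSMUSG00000024912.6, 5447547 to 5455946), 5 (Fosl2, ENSMUSG00000029135.10, 32135801 to 32157842), 4 (Jun, ENSMUSG00000052684.4, 95049034 to 95052222) and 8 (Junb, ENSMUSG00000052837.6, 84974484 to 84978718; Jund, ENSMUSG00000071076.6, 70698949 to 70700616). All are protein coding. Jun overlaps the antisense gene Junos, Jund the antisense gene Gm11175, Fosl1 overlaps Ccdc85b and Junb overlaps Prdx2, each on the opposite strand. Whether strand was used in counting is not given in the sources used here, so these 4 are uncertain to that extent. Per kb of exon, the EV 0 h means were 1671 ± 33.4 for Fosl2, 1665 ± 467 for Jun, 1412 ± 44.5 for Jund and 1145 ± 91.0 for Junb (SD, n = 2). Fosl1, Fos and Fosb were far lower, at 84.1 ± 35.5, 50.2 ± 16.2 and 28.8 ± 8.27 per kb (SD, n = 2). Resting AP-1 RNA was therefore mostly Fosl2, Jun, Jund and Junb. The E2F1 line at 0 h had the same 4 on top, with Jun at 1777 ± 220, Jund at 1198 ± 29.3, Fosl2 at 1119 ± 38.1 and Junb at 1039 ± 0.307 per kb (SD, n = 2). In normalized counts averaged over all libraries, 97.1% of genes were lower than Fosl2 and 3.53% were lower than Fos.

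**Figure D1:**
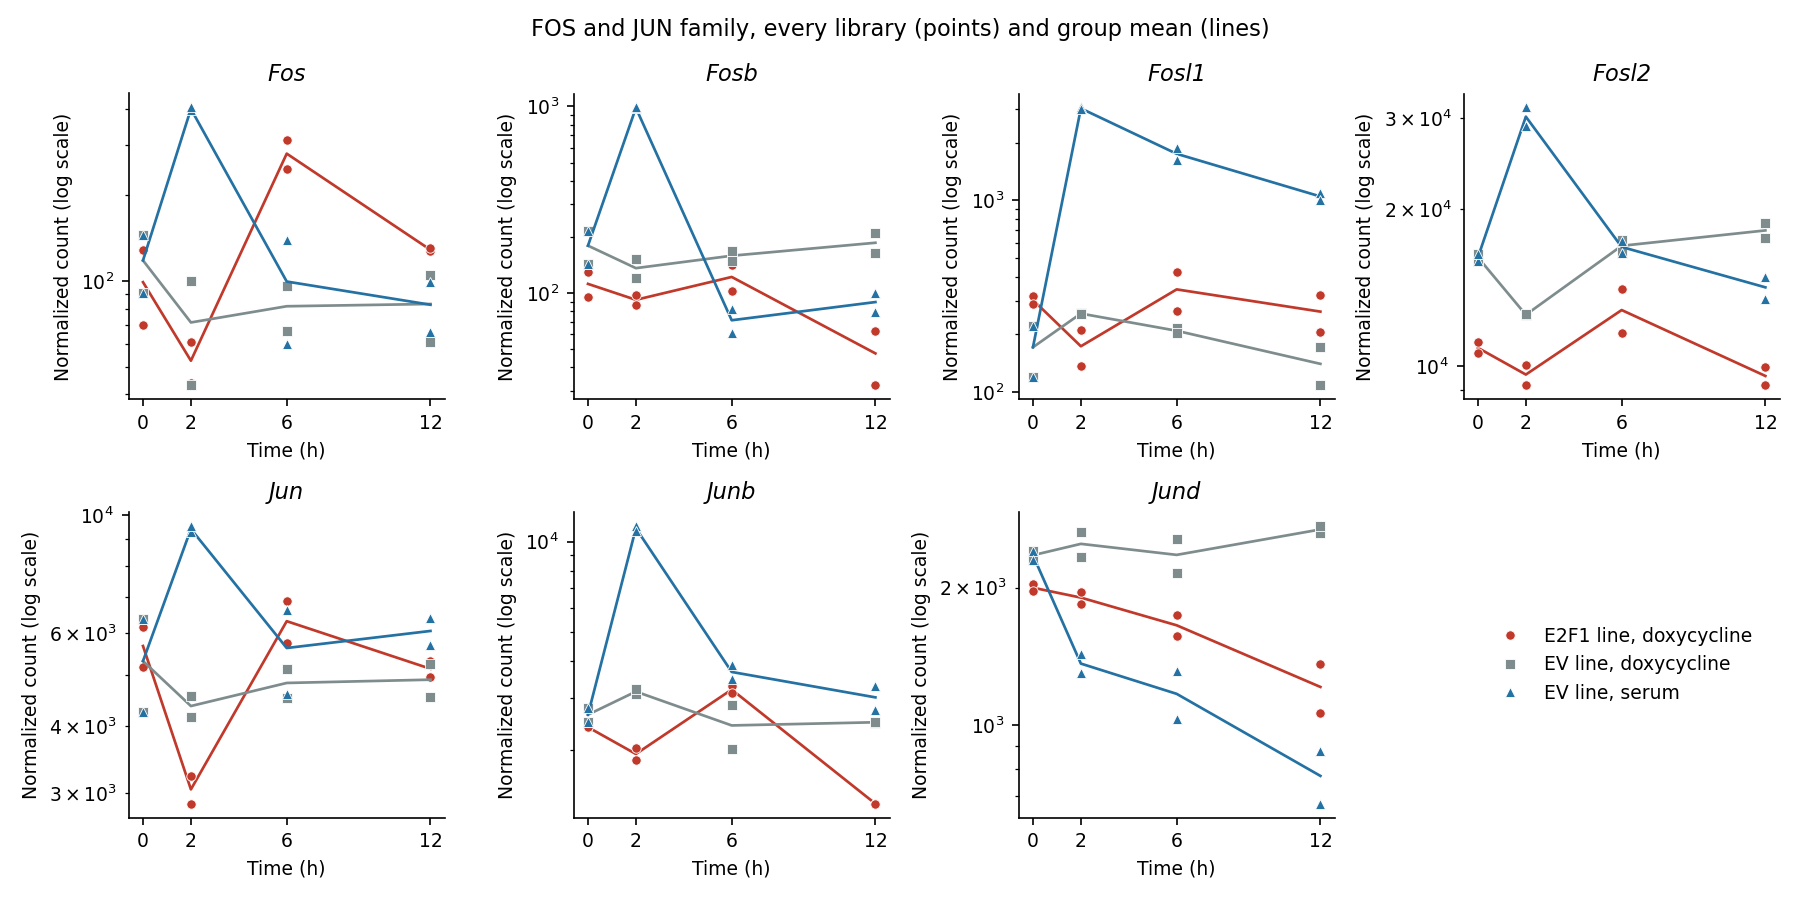
Normalized counts (log axis) of each member against hours of doxycycline or serum; points are single libraries and lines join group means. For 6 of 7 members the 2 h serum libraries are the highest of all, and for Jund the 12 h serum libraries are the lowest.

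Serum changed every member at 2 h, and then the family split. Fos, Fosb, Fosl1, Fosl2, Jun and Junb rose and Jund fell at 2 h, so all 7 passed the threshold, where 70.9% of all genes did, 37.5% upward and 33.5% downward. At 6 h 4 of 7 passed, 2 each way, against 67.5% of genes, 36.5% upward and 31% downward. At 12 h 3 of 7 passed, 1 upward and 2 downward, against 65.7%, 36% upward and 29.7% downward. The counts at 6 and 12 h were thus near or under the background. The members differed in time course: Fosl1 stayed high, Jund went on down, Fosb dropped under its resting level, and no change from 0 h was called for Fos, Fosl2 or Jun at 6 and 12 h.

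Fosl1, a FOS-side subunit linked to cell motility, stood at 120 and 222 normalized counts at EV 0 h and at 3064 and 2991 after 2 h of serum. At 6 h it was at 1873 and 1633 and at 12 h at 1089 and 1009, every serum library above both 0 h libraries. The log2 changes were 4.20, 3.41 and 2.68 (SE 0.29, adjusted p 3.61e-10, 9.57e-09 and 2.80e-07), which are 18.4-fold, 10.7-fold and 6.39-fold. Fosb, the FOS paralogue known for its truncated stable form in neurons, went from 143 and 216 to 977 and 988 at 2 h. It was then at 61 and 82 at 6 h and 79 and 100 at 12 h, below both 0 h libraries each time. Its log2 changes were 2.48 (5.56-fold, adjusted p 1.18e-06), -1.30 (adjusted p 0.00132) and -0.98 (adjusted p 0.0109), each with an SE of 0.31. Quantile normalization ended the 6 h and 12 h calls (-0.64, adjusted p 0.120, and -0.59, adjusted p 0.150). The 12 h call also ended without EV 0 h replicate 2 (adjusted p 0.127) or 12 h serum replicate 1 (adjusted p 0.0847).

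Fos itself, the founding member, was at 145 and 91 normalized counts at EV 0 h and at 396 and 406 at 2 h of serum, a log2 change of 1.79 (SE 0.45, adjusted p 0.00149) or 3.47-fold. At 6 h the libraries were at 139 and 60 and at 12 h at 99 and 66, inside or under the 0 h range. The log2 changes there were -0.33 and -0.50 (adjusted p 0.530 and 0.331), and the first turned to 0.31 under quantile normalization. The first serum sample was taken at 2 h, so earlier levels of Fos are not seen. Fosl2, the most abundant FOS-side transcript, went from 15948 and 16405 to 28920 and 31454, a log2 change of 0.90 (SE 0.09, adjusted p 4.70e-08) or 1.86-fold. It was back at 16510 and 17370 at 6 h and at 13465 and 14855 at 12 h. The log2 changes of 0.07 and -0.19 had adjusted p of 0.524 and 0.0633. Under quantile normalization the 6 h value turned to -0.30 (adjusted p 0.00369), and under equal totals to -0.15 (adjusted p 0.124). The 12 h value passed the threshold under both (-0.35, adjusted p 0.00107, and -0.27, adjusted p 0.00769).

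On the JUN side, Junb had the largest 2 h rise. It went from 2486 and 2782 to 11300 and 10896 normalized counts, a log2 change of 2.08 (SE 0.12, adjusted p 3.58e-11) or 4.22-fold. It was at 3862 and 3462 at 6 h, a change of 0.48 (adjusted p 0.00198), and at 2730 and 3290 at 12 h, 0.19 (adjusted p 0.175). The 6 h call ended under quantile normalization (0.25, adjusted p 0.0839) and equal totals (0.26, adjusted p 0.0662). Jun, the main partner of Fos, went from 4257 and 6363 to 9282 and 9535, a log2 change of 0.85 (SE 0.17, adjusted p 0.000187) or 1.81-fold. Quantile normalization lowered it to 0.37 (adjusted p 0.0584). At 6 h its libraries were at 6637 and 4600 and at 12 h at 6403 and 5696, overlapping those at 0 h. The 6 h value of 0.09 turned negative under quantile normalization (-0.20) and equal totals (-0.13).

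Jund, the only member called lower at 2 h of serum, was also called lower at 6 and 12 h. Its EV 0 h libraries were at 2407 and 2302 normalized counts, and those after 2, 6 and 12 h of serum at 1298 and 1427, 1028 and 1311, and 671 and 875. No serum library overlapped the 0 h libraries. The log2 changes were -0.79, -1.02 and -1.62 (SE 0.14, adjusted p 6.39e-05, 4.37e-06 and 1.93e-08), so at 12 h Jund was 3.07-fold lower. These calls held under every alternative run, as did the 3 of Fosl1. Bringing all libraries to equal totals moved the median serum change of all genes by -0.37 at 2 h and -0.21 at 6 h. The share of serum calls over all genes that were higher then went from 52.8% to 30.7% at 2 h and from 54.1% to 37.9% at 6 h. Quantile normalization moved the median serum change less, by -0.076 at 2 h and -0.045 at 6 h, and that at 6 h of doxycycline in the E2F1 line by -0.106.

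In the authors' deposited table for 2 h of serum, Fosl1, Fosb and Junb were listed at log2 fold changes of 4.21, 2.49 and 2.09. The authors' deposited table for 6 h listed Fosl1 at 3.42 and that for 12 h at 2.70. Those tables hold only changes of about 2 or more, and no member was in any doxycycline table.

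**Figure D2:**
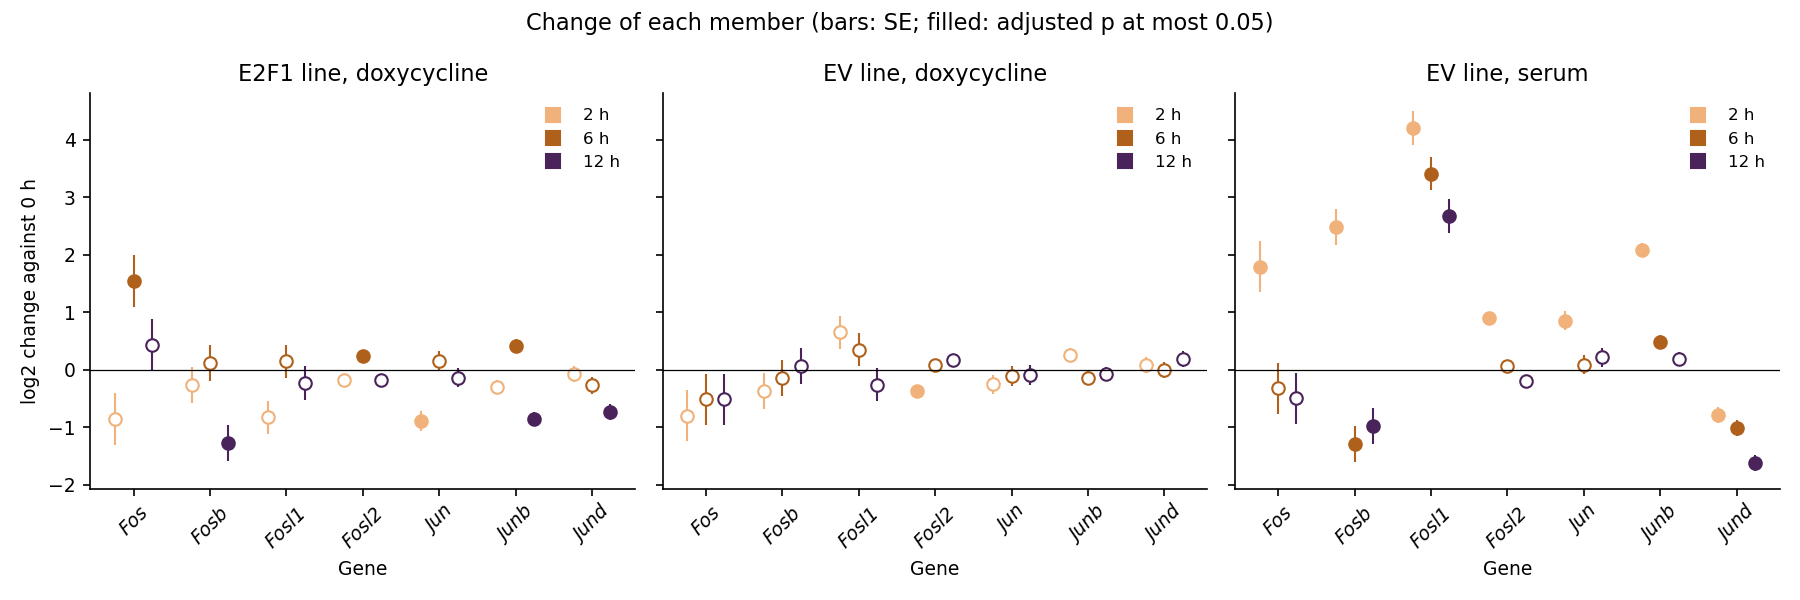
Log2 change of each member against 0 h of its line, for doxycycline in the E2F1 line, doxycycline in the EV line and serum in the EV line, with SE bars and filled points where the adjusted p was at most 0.05. The widest spread among members is under serum, from 4.20 for Fosl1 at 2 h to -1.62 for Jund at 12 h.

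Serum reshaped the mixture of family RNA as well as its amount. Summed per kb of exon, the 7 members went from 6056 ± 574 at EV 0 h to 13526 ± 151 at 2 h of serum, and were at 6720 ± 497 at 6 h and 5697 ± 168 at 12 h (SD, n = 2). Jund made up 23.5% ± 2.96 of this sum at 0 h and 6.04% ± 0.337, 10.5% ± 2.56 and 8.12% ± 1.28 at the 3 serum times (SD, n = 2). Fosl1 went the other way, from 1.37% ± 0.456 to 10.8% and 11.2% in the 2 h libraries, 12.8% ± 0.295 at 6 h and 9.07% ± 0.756 at 12 h (SD, n = 2). Junb took 18.9% ± 0.292 at 0 h and 35.7% ± 1.31 at 2 h, the largest share of any member there. Fos and Fosb stayed small, at most 1.98% and 1.16% in any group mean. The FOS side as a whole held 30.4% ± 1.88 of the family at EV 0 h and 39.8% ± 2.31 at 6 h of serum (SD, n = 2).

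**Figure D3:**
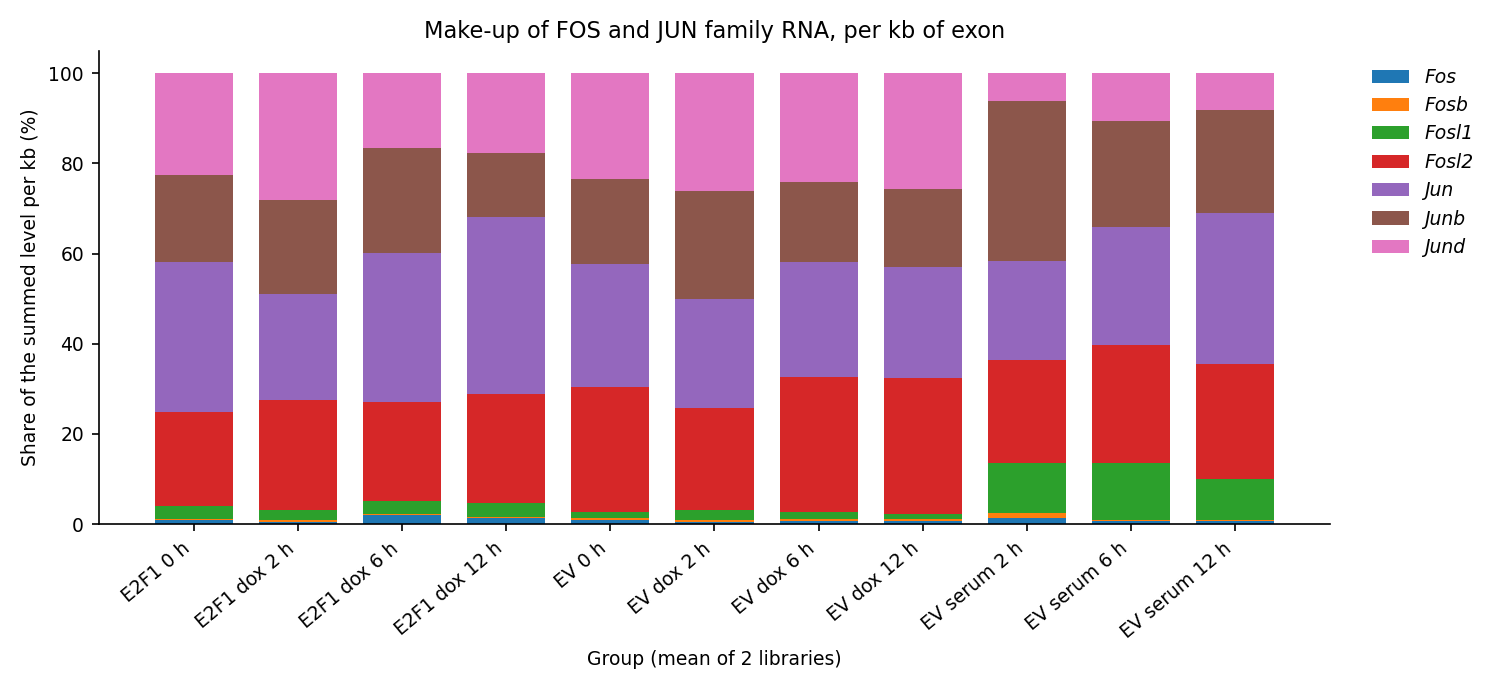
Share of each member in the summed family level per kb of exon (%), stacked to 100% for the 11 groups, each the mean of 2 libraries. Jund takes 23.5% at EV 0 h and 6.04% after 2 h of serum, and Junb takes 18.9% and 35.7%.

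Fewer members were called at 2 h of doxycycline in the E2F1 line than at 2 h of serum in the EV line. The changes given next are from 0 h of the E2F1 line, so they hold doxycycline and time as well as the construct. After 2 h of doxycycline 1 of 7 members passed, Jun, which fell, and 1.86% of all genes passed, 0.865% upward and 0.99% downward. At 6 h 3 of 7 passed, all upward (Fos, Junb and Fosl2), where 51.7% of genes passed, 28.8% upward and 22.9% downward. At 12 h 3 of 7 passed, all downward (Fosb, Junb and Jund), where 61.5% did, 31.8% upward and 29.7% downward. Quantile normalization and equal totals moved the median of all genes at 6 h by -0.11 and -0.12, and the share of all calls that were higher from 55.7% to 41.0% and 41.5%. No member had a change as large as 2 log2 units at any time.

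In the E2F1 line Fos was at 128 and 70 normalized counts before doxycycline, at 61 and 44 at 2 h, at 312 and 247 at 6 h and at 127 and 130 at 12 h. Only the 6 h libraries stood clear of those at 0 h on the high side. The log2 change at 6 h was 1.54 (SE 0.45, adjusted p 0.00772) or 2.91-fold. It lost the call without E2F1 0 h replicate 2 (1.11, adjusted p 0.106) or 6 h replicate 1 (1.37, adjusted p 0.0620). Fosb was at 95 and 129 at 0 h, 98 and 86 at 2 h, 142 and 102 at 6 h and 63 and 32 at 12 h, where it lay below every other E2F1-line library. The 12 h log2 change was -1.28 (SE 0.31, adjusted p 0.00175), and -0.80 (adjusted p 0.0514) without 12 h replicate 2.

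Fosl1, the member that rose most with serum, showed no call with E2F1. Its libraries were at 318 and 286 normalized counts at 0 h, 136 and 210 at 2 h, 423 and 263 at 6 h and 319 and 206 at 12 h. The log2 changes were -0.83, 0.14 and -0.23 (SE 0.29, adjusted p 0.168, 0.695 and 0.501), and leaving out single libraries gave -0.20 to 0.49 at 6 h and -0.55 to 0.08 at 12 h. Fosl2 was at 10567 and 11088 at 0 h, 9194 and 10041 at 2 h, 14049 and 11558 at 6 h and 9952 and 9165 at 12 h. Its 6 h change of 0.24 (SE 0.09, adjusted p 0.0340) ended under both rescalings (0.05, adjusted p 0.649, and 0.12, adjusted p 0.231), without the trend, with only the groups compared and without any of 3 single libraries. Its 12 h change of -0.18 (adjusted p 0.0860) passed the threshold under both rescalings (adjusted p 0.00127 and 0.0189).

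In the E2F1 line Jun stood at 5173 and 6163 normalized counts before doxycycline and at 2860 and 3232 after 2 h, below every one of the other 20 libraries. The log2 change was -0.89 (SE 0.17, adjusted p 0.00966) or 1.86-fold lower. The call ended without E2F1 0 h replicate 2 (adjusted p 0.177) or either 2 h library (adjusted p 0.130 without replicate 1 and 0.0582 without replicate 2). At 6 h Jun was at 6892 and 5730 and at 12 h at 5321 and 4950, with changes of 0.15 and -0.14 (adjusted p 0.459 and 0.496), the first turning to -0.11 under quantile normalization. Junb was at 2392 and 2391 at 0 h, 2035 and 1855 at 2 h, 3277 and 3117 at 6 h and 1327 and 1323 at 12 h. It thus rose by 0.42 at 6 h (SE 0.12, adjusted p 0.00755) and fell by 0.85 at 12 h (adjusted p 7.85e-06), which is 1.80-fold lower. The rise ended under quantile normalization (0.22, adjusted p 0.128) and without 6 h replicate 1 (adjusted p 0.0547), and the fall held throughout. Jund was at 2033 and 1964 at 0 h, 1958 and 1844 at 2 h, 1564 and 1742 at 6 h and 1060 and 1362 at 12 h. Its libraries at 2, 6 and 12 h all lay below both at 0 h. The 12 h change was -0.73 (SE 0.14, adjusted p 0.000199), or 1.66-fold lower, and held throughout. The 6 h change of -0.28 (adjusted p 0.110) passed under quantile normalization (-0.44, adjusted p 0.0112), under equal totals (-0.39, adjusted p 0.0187) and with only the groups compared (adjusted p 0.0347).

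The summed family level per kb in the E2F1 line was 5342 ± 203 at 0 h, 4056 ± 60.0 at 2 h, 5989 ± 493 at 6 h and 4091 ± 54.9 at 12 h (SD, n = 2). By 12 h Jun was 39.4% ± 1.48 of it, from 33.2% ± 2.85 at 0 h, and Junb was 14.1% ± 0.159, from 19.5% ± 0.747 (SD, n = 2). Fos reached its highest share of any group, 1.98% ± 0.163, at 6 h.

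The EV line given doxycycline is the background for the drug and the vector. After 2 h 1 of 7 members passed, Fosl2, which was lower, where 7.35% of genes passed, 4.93% upward and 2.43% downward. At 6 h and at 12 h 0 of 7 passed in limma, and 0 of 7 at an unadjusted p under 0.05. Unadjusted, 661 of 11208 genes passed at 6 h and 1886 at 12 h. After adjustment 0.134% of genes passed at 6 h, all upward, and 4.17% at 12 h, 0.749% upward and 3.42% downward. Fosl2 went from 15948 and 16405 to 12517 and 12558 normalized counts at 2 h and was at 16574 and 17475 at 6 h and 17622 and 18831 at 12 h. The 2 h log2 change was -0.37 (SE 0.09, adjusted p 0.0176), or 1.29-fold lower. The 2 h libraries fell between the 0 h libraries of the lines, whose marker genes also stood off at this time, as given above, and the part of this in the result was not tested. The call ended with only the groups compared (adjusted p 0.0632) and without any 1 of the 4 libraries (adjusted p 0.0537 to 0.114). Of the other members no change was called. Fos was at 43 and 100, 96 and 67, and 105 and 61 at the 3 times, and Fosb at 152 and 120, 149 and 168, and 163 and 209. Fosl1 was at 258 and 255, 215 and 202, and 172 and 108, above both 0 h libraries at 2 h and overlapping or between them later. Jun ran from 4176 to 5247, Junb from 2016 to 3216 and Jund from 2156 to 2730 over the 6 libraries, next to 0 h ranges of 4257 to 6363, 2486 to 2782 and 2302 to 2407. Jun and Jund at 2 h had changes of -0.25 and 0.08, which changed sign when a single library was left out.

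The doxycycline changes of the lines were then tested against each other. At 2 h 0 of 7 members differed in limma, where 0.143% of genes passed after adjustment, 0.0535% upward and 0.0892% downward. At an unadjusted p under 0.05, 3 of 7 members passed, and 872 of 11208 genes did. These 3 were Fosl1 (-1.48, adjusted p 0.185), Junb (-0.56, adjusted p 0.274) and Jun (-0.64, adjusted p 0.463), none of them called. At 6 h 2 of 7 differed, both higher in the E2F1 line, where 34.5% of genes did, 22.2% upward and 12.3% downward. These were Fos, by 2.05 (SE 0.63, adjusted p 0.0170) or 4.15-fold, and Junb, by 0.56 (SE 0.17, adjusted p 0.0168). At 12 h 4 of 7 differed, all lower in the E2F1 line, where 50.5% of genes did, 27.3% upward and 23.3% downward. They were Jund (-0.92, SE 0.20, adjusted p 0.000858), Junb (-0.77, SE 0.17, adjusted p 0.00105), Fosb (-1.35, SE 0.44, adjusted p 0.0166) and Fosl2 (-0.35, SE 0.13, adjusted p 0.0262). Of all genes called, the upward share at 6 h went from 64.5% to 44.5% under quantile normalization and 48.3% under equal totals, and at 12 h from 54.0% to 43.5% under quantile normalization. At 2 h it went from 37.5% to 25% under equal totals, over few calls. The calls of Jund and Junb at 12 h held under every alternative run. The Fos call at 6 h ended without any 1 of E2F1 0 h replicate 2, E2F1 6 h replicate 1, EV 0 h replicate 1 and EV 6 h doxycycline replicate 2, with adjusted p of up to 0.0889. The Junb call at 6 h ended under quantile normalization (0.38, adjusted p 0.0913), with only the groups compared, and without E2F1 6 h replicate 1, EV 0 h replicate 2 or EV 6 h doxycycline replicate 1. The Fosb and Fosl2 calls at 12 h each ended without any 1 of E2F1 0 h replicate 2, E2F1 12 h replicate 2, EV 0 h replicate 1 and EV 12 h doxycycline replicate 2, with adjusted p of up to 0.108 and 0.0981. That of Fosb also ended with only the groups compared (adjusted p 0.0534).

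**Figure D4:**
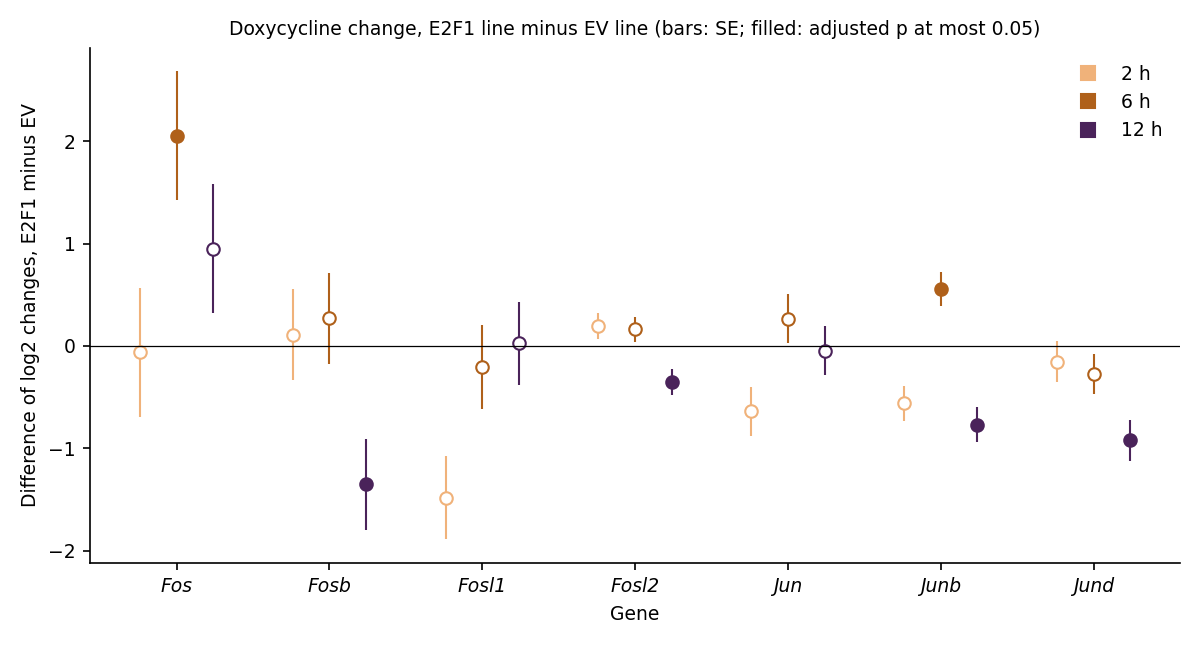
Difference between the log2 doxycycline changes of the E2F1 and EV lines for each member at 2, 6 and 12 h, with SE bars and filled points where the adjusted p was at most 0.05. Filled points are above 0 for Fos and Junb at 6 h and below 0 for Fosb, Fosl2, Junb and Jund at 12 h.

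The doxycycline change in the E2F1 line was set against the serum change at matched times, and most members differed at 2 h. The E2F1 change minus the serum change differed for 7 of 7 members there, where 56.7% of genes did, 26.6% upward and 30.2% downward. It was lower for 6, from -5.04 for Fosl1 (adjusted p 1.26e-08) to -1.07 for Fosl2, and higher for Jund (0.72, adjusted p 0.00494). Serum against EV doxycycline at 2 h also differed for 7 of 7 members, where 67.1% of all genes did. The E2F1-line change differed from the EV doxycycline change at 2 h for 0 of 7, where 0.143% of all genes did. The E2F1 2 h libraries stood apart in the line markers, as given above. The part of E2F1 in the 2 h gap from serum was not tested. For the E2F1 change minus the serum change at 2 h, equal totals took the upward share of all calls from 46.8% to 71.7%. At 6 h 4 of 7 differed, where 57.9% of genes did, 30.3% upward and 27.6% downward. Fos was higher with E2F1 by 1.87 (SE 0.63, adjusted p 0.0167), with libraries at 312 and 247 there and at 139 and 60 with serum. Fosb was higher by 1.42 (adjusted p 0.0107), Jund by 0.74 (adjusted p 0.00380), and Fosl1 was lower (-3.27, adjusted p 2.24e-06). The calls of Fos and Fosb ended under quantile normalization (adjusted p 0.0666 and 0.0830) and without any 1 of several libraries, with adjusted p of up to 0.102 for Fos without 6 h serum replicate 2 and 0.0593 for Fosb without EV 0 h replicate 2. At 12 h 3 of 7 differed, where 48.8% of genes did, 25% upward and 23.8% downward: Fosl1 (-2.91, adjusted p 1.46e-05), Junb (-1.04, adjusted p 7.17e-05) and Jund (0.88, adjusted p 0.00130). Jund thus fell in both series by 12 h and by more with serum, whereas Junb fell with E2F1 and was at 0.19 with serum.

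Within the EV line, serum was also set against doxycycline at the same hour. At 2 h 7 of 7 members differed where 67.1% of genes did, 35% upward and 32.1% downward, with Fosl1 at 3.56, Fosb at 2.85, Fos at 2.59, Junb at 1.82, Fosl2 at 1.27, Jun at 1.11 and Jund at -0.87 (adjusted p of at most 5.03e-05). At 6 h 4 of 7 differed where 65.8% did, 35.8% upward and 30% downward: Fosl1 (3.06), Junb (0.61), Fosb (-1.15) and Jund (-1.02). At 12 h 4 of 7 differed where 70.4% did, 37.9% upward and 32.5% downward: Fosl1 (2.93), Fosl2 (-0.37), Fosb (-1.05) and Jund (-1.81, 3.50-fold lower). Equal totals took the upward share of all calls from 52.2% to 25.9% at 2 h and from 54.4% to 38.4% at 6 h. Quantile normalization ended the Fosb calls at 6 and 12 h (adjusted p 0.184 and 0.0645), and the 12 h call also ended without EV 12 h doxycycline replicate 2 (adjusted p 0.0603) or 12 h serum replicate 1 (adjusted p 0.0572).

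The starved lines differed before any stimulus in 2 of 7 members, where 15% of genes differed, 8.86% upward and 6.17% downward in the E2F1 line (59.0% of calls upward, and 72.0% under equal totals). Fosl2 was lower in the E2F1 line, at 10567 and 11088 against 15948 and 16405, a log2 difference of -0.58 (SE 0.09, adjusted p 0.000354). Fosl1 was higher by 0.88 (SE 0.29, adjusted p 0.0476), at 318 and 286 against 120 and 222, and that call ended under 7 of the alternatives, with an adjusted p of 0.425 and a difference of 0.44 without EV 0 h replicate 1. With 1 E2F1 and 1 EV line, line and construct cannot be told apart here.

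The 11 group means of each member were ranked, and neighbouring groups without overlap of libraries were counted. The same count was not made over all genes, so the counts are a description only. Fos ran from 401 ± 7.07 at 2 h of serum through 280 ± 46.0 at 6 h in the E2F1 line down to 52.5 ± 12.0 at 2 h in the E2F1 line (SD, n = 2), and only those first steps separated neighbouring groups without overlap of libraries. The other 8 of its 10 neighbouring pairs overlapped. For Fosb 1 of 10 pairs was clear, that below 2 h of serum, and the 10 lower groups ran from 186 ± 32.5 to 47.5 ± 21.9. For Fosl1 4 pairs were clear: the 3 serum groups stood in order of time above all others, and 2 h of EV doxycycline above the group after it. For Jun 2 pairs were clear, its highest group (9409 ± 179, 2 h of serum) and its lowest (3046 ± 263, 2 h in the E2F1 line). Junb had 4 clear pairs, and its lowest group was 12 h in the E2F1 line (1325 ± 2.83). Fosl2 had 6 clear pairs and Jund 5. The ratio of the highest to the lowest group mean was 21.6 for Fosl1, 20.7 for Fosb, 8.38 for Junb, 7.64 for Fos, 3.47 for Jund, 3.16 for Fosl2 and 3.09 for Jun. Replicates spread most for Fos, with a median coefficient of variation of 28.3%, and least for Junb (3.54%) and Fosl2 (4.69%).

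The regulators that switch AP-1 genes on were taken from a list of 23 genes in the table, the ternary complex factors, SRF and its cofactors, CREB proteins and the ERK, JNK and p38 kinase routes. With E2F1, none rose and 1 fell at 2 h, 11 rose and 2 fell at 6 h, and 11 rose and 5 fell at 12 h, where 1.86% of all genes passed at 2 h, 51.7% at 6 h and 61.5% at 12 h. With serum, 13 rose and 2 fell at 2 h, 11 and 5 at 6 h, and 9 and 4 at 12 h, where 70.9% of all genes passed at 2 h, 67.5% at 6 h and 65.7% at 12 h. The 2 h serum counts ran from 7 to 14 higher and 2 to 8 lower over the alternatives, with 7 and 8 under equal totals. The falls at 6 h of E2F1 ran from 0 without 6 h replicate 1 to 6 under quantile normalization. At 2 h of serum the list's median change was 0.34, against 0.03 over all genes, and at 12 h of E2F1 0.25 against -0.02. Map3k1, a kinase upstream of JNK, rose in the E2F1 line from a mean of 243 to 1718 and 1472 at 6 h (2.71, adjusted p 8.46e-09) and to 1170 and 920 at 12 h (2.10). Mapk14, the p38 alpha kinase, rose by 1.52 and 1.01 at those times. Mapk8 and Mapk9, which encode JNK kinases, rose by 0.78 and 0.51 at 6 h (adjusted p 7.80e-05 and 0.000391). Srf, whose product binds the serum response element, fell in the E2F1 line at 12 h by 0.93, and Elk1, its ternary complex partner, fell by 0.66. Srf fell in the EV line under doxycycline too, with changes of -0.94 and -0.75 at 2 and 12 h (adjusted p 0.00774 and 0.0358), and both calls ended without EV 0 h replicate 2 (-0.56, adjusted p 0.103, and -0.37, adjusted p 0.628). With serum at 2 h Srf rose by 1.91, to 12403 and 13786, and Mrtfa, its actin-sensing cofactor, by 1.95. Mapk3, which encodes ERK1, fell with serum by 0.94 at 2 h, 1.53 at 6 h and 0.96 at 12 h, and rose with E2F1 by 0.51 at 6 h and 0.69 at 12 h. Rps6ka5, a nuclear kinase downstream of ERK and p38, had serum changes of -2.43 at 2 h and -2.03 at 6 h. The E2F1 changes of Srf at 2 h (-0.77) and of Elk1 (-0.38) and Mrtfa (-0.34) at 6 h lost their calls under at least 1 alternative, Srf among others without E2F1 0 h replicate 2 (adjusted p 0.550).

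Other leucine zipper proteins compete for or share AP-1 partners, and 12 of them were in the table. With serum 7 rose and 4 fell at 2 h, 5 and 3 at 6 h, and 4 and 5 at 12 h, next to the 70.9%, 67.5% and 65.7% of all genes called. The 4 falls at 2 h were 1 without EV 0 h replicate 1 or 2 h serum replicate 2. With E2F1 none passed at 2 h, 1 rose and 2 fell at 6 h, and 1 rose and 4 fell at 12 h, next to 1.86%, 51.7% and 61.5% of all genes. The E2F1 counts at 6 h ran from 1 to 3 rises and 1 to 4 falls over the alternatives, and the single rise at 12 h from 0 to 2. Atf3, a stress-induced partner of JUN, rose with 2 h of serum from a mean of 63 to 575 and 673 (3.29, SE 0.80, adjusted p 0.00120), and the small MAF gene Maff rose by 2.71. Maf, the large MAF, had serum changes of -3.35, -2.84 and -4.38 at 2, 6 and 12 h, from 1018 to 49 normalized counts in the means at 0 and 12 h, and one of -1.64 at 12 h of E2F1. Mafk had a change of 0.97 at 6 h of serum and -0.51 at 6 h of E2F1, where Mafg changed by 0.61. Jdp2, a repressor that pairs with JUN, changed by -0.33 at 2 h (adjusted p 0.0313, up to 0.138 over the alternatives) and -0.55 at 6 h of serum. The calls of Atf7 at 6 h (-0.33) and of Mafg (0.35) and Cebpb (-0.54) at 12 h of E2F1 did not hold under all alternatives.

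The third list held 12 regulators of FOS and JUN stability. With E2F1 none rose and 2 fell at 2 h, with 7 and 1 at 6 h and 6 and 4 at 12 h, beside shares over all genes of 1.86%, 51.7% and 61.5%. With serum 8 rose and 1 fell at 2 h, 8 and 2 at 6 h and 7 and 2 at 12 h, beside 70.9%, 67.5% and 65.7%. At 6 h of E2F1 the 7 rises were 4 under quantile normalization, and at 12 h the 4 falls were 2 without 12 h replicate 2. Zfp36, which encodes tristetraprolin, a protein that binds the TTATTTATT core shown for Fos and Fosl2 and speeds decay, rose with 2 h of serum to 3068 and 2696 (1.91, adjusted p 3.97e-09), and fell at 12 h of E2F1 by 0.81. Its relative Zfp36l1 fell with E2F1 at 2 h by 1.18 and at 12 h by 0.93, with doxycycline in the EV line at 2 h by 1.00, and with serum by 0.82 at 12 h. At 6 h of serum it fell from a mean of 14024 to 5022 normalized counts. Its E2F1 change of -0.56 at 6 h lost the call without E2F1 0 h replicate 2 (adjusted p 0.0567). Fbxw7, the ubiquitin ligase subunit that marks JUN for destruction, rose by 1.53 at 2 h of serum, and Usp28, which opposes it, rose with E2F1 by 1.03 at 6 h and 0.60 at 12 h. Hnrnpd, the AU-rich element binding protein AUF1, rose with E2F1 by 1.25 and 1.31 at 6 and 12 h and with serum by 0.99 at 12 h, and fell in doxycycline-treated EV cells at 12 h by 0.38 (adjusted p 0.0316, and 0.610 without EV 0 h replicate 2). Dusp1, a phosphatase of the kinases above, had serum changes of -0.88 and -0.95 at 2 and 12 h, and both calls ended without EV 0 h replicate 1 (adjusted p 0.378 and 0.321).

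Genes described as AP-1 targets moved with serum in number. Of 23 in the table, 19 rose and 2 fell at 2 h, 18 and 2 at 6 h, and 14 and 3 at 12 h, while 70.9%, 67.5% and 65.7% of all genes were called. The median log2 changes were 3.20, 1.98 and 1.33 beside 0.03, 0.03 and 0.05 over all genes. With E2F1 none rose and 1 fell at 2 h, with 8 and 3 at 6 h, and 5 and 8 at 12 h, while 1.86%, 51.7% and 61.5% of all genes were called. The medians were -0.22, -0.08 and -0.37 beside 0.02, -0.03 and -0.02. The single 2 h fall ran from 0 without any 1 of the 4 libraries to 6 with only the groups compared. The 6 h E2F1 counts ran from 5 to 8 higher and 2 to 7 lower over the alternatives, the 5 without E2F1 0 h replicate 2 or 6 h replicate 1. Many of these genes are known to answer to serum through other factors too. In the EV line 2 h of doxycycline alone gave 6 rises and 4 falls, where 7.35% of all genes were called. Leaving out single libraries gave 0 rises without 2 h replicate 2 and 1 without EV 0 h replicate 1, and 1 fall without either of these or 2 h replicate 1. Lif, a cytokine, stood at a mean of 67.5 normalized counts at EV 0 h and at 13633 and 11103 after 2 h of serum (7.49, SE 0.59, adjusted p 2.29e-09). Plaur, the urokinase receptor, rose by 4.08 at 6 h and 3.23 at 12 h of serum. With E2F1 at 12 h, Plaur had a change of -0.98 (adjusted p 0.000177). Plaur was lower in doxycycline-treated EV cells at 12 h as well, at 597 and 494 against 791 and 1002 (-0.71, adjusted p 0.0358), a call that ended without EV 0 h replicate 2 (adjusted p 0.461). Ezr, which encodes the membrane linker ezrin, rose in the E2F1 line from a mean of 963 to 6632 and 4916 at 6 h (2.57, adjusted p 1.78e-10), with a change of 2.19 at 12 h. Sphk1, a lipid kinase, fell with E2F1 by 0.88 at 6 h and 1.92 at 12 h, and with serum by 1.87 and 2.04 at those times. Spp1, which encodes osteopontin, fell in all 3 serum comparisons, by 0.77, 1.85 and 2.02, and by 0.66 at 6 h of E2F1. It changed by -0.69 in doxycycline-treated EV cells at 12 h (adjusted p 0.00858, and 0.126 without EV 0 h replicate 2). The E2F1 call of Lif at 6 h (2.15) ended without 6 h replicate 1 (1.78). Lif was also higher in doxycycline-treated EV cells at 2 h, at 287 and 408 against 62 and 73 (2.33, adjusted p 0.0226). That call ended without the trend (limma, adjusted p 0.0520) and without any 1 of the 4 libraries, where the change was 2.08 to 2.58. Sphk1 was lower there (-0.76, adjusted p 0.00488), and its call ended without 2 h replicate 1 (-0.60). At 6 h of EV doxycycline 0 of the 23 targets were called, where 0.134% of all genes were.

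**Figure D5:**
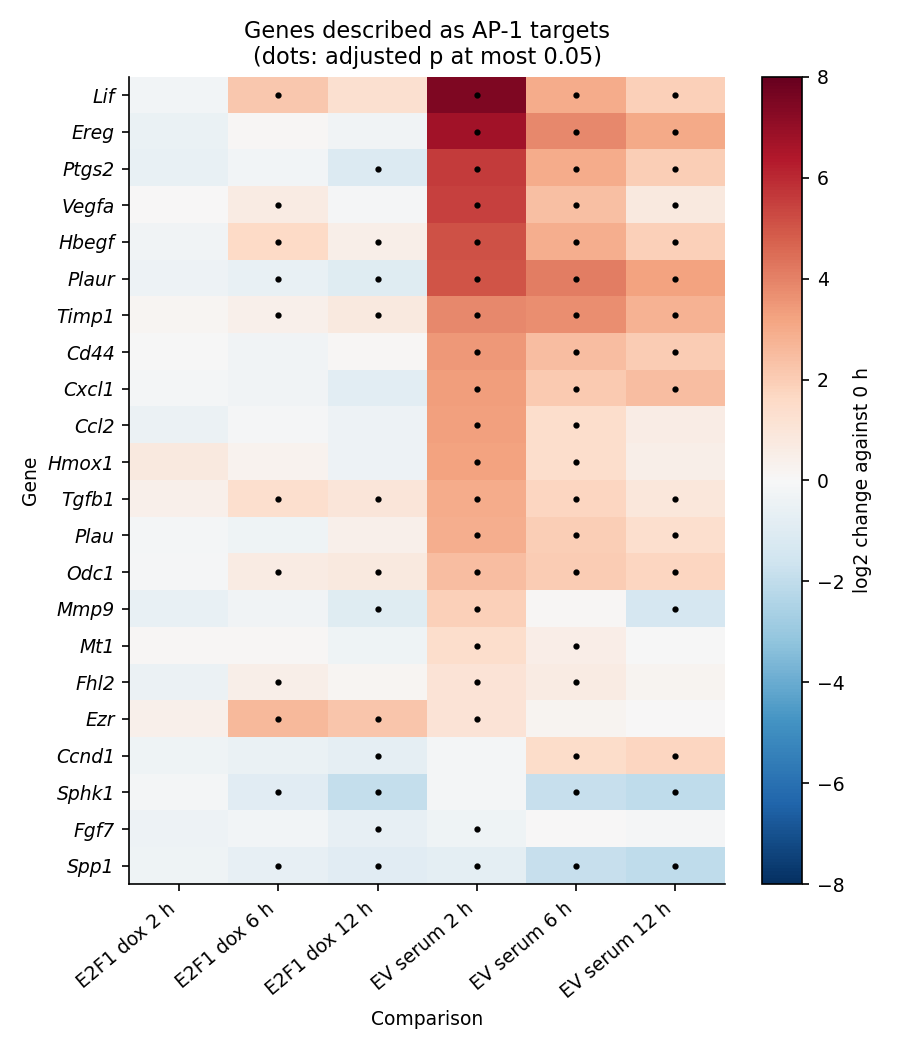
Log2 change against 0 h of genes described as AP-1 targets, by color, in the 3 E2F1 and 3 serum comparisons, with a dot where the adjusted p was at most 0.05; 1 gene of the list is not drawn. The 2 h serum column orders the genes, with Lif at the top at 7.49.

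The genes whose group means ran most like each member were sought among 7223 others with a mean of at least 50 and a range of at least 1 log2 unit. Pearson's r over the 11 group means, which share their libraries, is given as a description. Fosl1 ran closest to Rgs16 (0.99), Ube2j2 (0.99) and Tnfrsf12a (0.98). Fos ran with Slc23a2 (0.94), Rbm12 (0.93) and Rybp (0.93), and Fosb with Atp13a3 (0.96), Pxn (0.96) and Numb (0.95). Fosl2 was nearest to Runx2 (0.94), and its next matches, Gm7910 and Rps15-ps3, have the names of predicted genes or pseudogenes. Junb ran with Cuedc1 (0.97), Zfp36 (0.95) and Tbcc (0.95), and Jund with Lrig2, Mrgprd and Slc6a9 (0.98 each). Jun had the weakest matches, Nbl1 (0.89), Spred1 (0.87) and Ier5 (0.86). Among the members themselves r was 0.85 for Fos and Jun, 0.84 for Fosb and Junb, 0.83 for Fosl2 with Junb and with Fosb, and -0.71 for Fosl1 and Jund, and the single 2 h serum group weighs in each of these.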

How the data were processed

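Polyadenylated RNA of 22 libraries was sequenced as paired 150 bp reads, per the labels' protocols. FastQC, Trimmomatic, HISAT2, featureCounts, DESeq2 and the build mm10 are named, without versions or settings, per the submitters' processing notes. The deposited main table holds normalized counts, which the authors scaled and rounded to whole numbers, and it is handled here as a score because the deposited values are no longer raw. The authors' comparison tables hold the log2 fold change and the adjusted p-value as the authors deposited them, only for changes of about 2 or more.

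Groups and replicate numbers came from the labels. limma 3.58.1 (R 4.3.3) was run on log2(value + 1): a mean for each of 11 groups over 22 libraries, 11 residual degrees of freedom, empirical Bayes with a trend, and Benjamini-Hochberg adjustment over 11208 genes with a threshold of 0.05. A filter of at least 10 in 2 libraries removed no gene. The code was tested on simulated data. Members, gene lists and tests were chosen with earlier results of these data known. A listed gene counts in its list but is not reported here. List genes are named by rule: up to 2 rises and 2 falls of largest change per list and comparison, past the threshold, with libraries clear of 0 h and a mean of at least 50; Mapk8, Mapk9, Plaur at 12 h of E2F1 and their values outside those comparisons were added with the results in view.

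The alternatives tried were quantile normalization, equal totals, a pseudocount of 8, no filter, the replicate block, no trend, only the groups compared, no 2 h doxycycline libraries and each replicate left out. Leaving the 2 h doxycycline libraries of the other line, or all E2F1-line libraries, out of the fit was chosen after seeing the data. With 1 library left in a group, that library was assumed to vary like the others. Of 11208 identifiers 10977 matched GENCODE M21 (GRCm38) with their version, and positions were read there. Per-kb levels divide by the union of exons. Promoters are from the RefSeq table on GRCm38.p6. Python 3.11.15, pandas 2.3.3, numpy 2.4.6 and matplotlib 3.10.9 made tables and figures.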

Additional observations from a re-analysis of the deposited data

Results flagged for a closer look

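In 6 cases the doxycycline change of a member differed between the E2F1 and EV lines by a test of the difference itself (limma, adjusted over all genes). Fos differed at 6 h by 2.05 (adjusted p 0.0170) and Junb by 0.56 (adjusted p 0.0168), both higher in the E2F1 line. At 12 h Fosb differed by -1.35 (adjusted p 0.0166), Fosl2 by -0.35 (adjusted p 0.0262), Junb by -0.77 (adjusted p 0.00105) and Jund by -0.92 (adjusted p 0.000858), all lower in the E2F1 line. Junb thus changed direction between these times. Only Junb and Jund at 12 h kept their calls under every alternative run.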

How the results depend on the processing

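Of 59 called member results, 40 were called under every alternative run and 19 were lost under at least 1. For the 87 member results among the printed comparisons, and apart from single libraries left out, 666 alternative values kept direction and call, 22 lost a call, 8 gained one and 6 reversed. The 6 reversed values, none of them called at the deposited scaling, were under quantile normalization Jun at 6 h of E2F1 (-0.11), and at 6 h of serum Fos (0.31), Fosl2 (-0.30, adjusted p 0.00369) and Jun (-0.20), and under equal totals at 6 h of serum Fosl2 (-0.15) and Jun (-0.13). The cause was not tested. Over the other 46 member results, all not called, 8 values reversed and 6 gained a call. The gains were Fosl2 for serum against doxycycline at 6 h under quantile normalization (-0.37, adjusted p 0.000800) and equal totals (-0.21, adjusted p 0.0316), Jun (adjusted p 0.0184) and Junb (adjusted p 0.0390) there at 12 h with only the groups compared, Junb there with the replicate block (adjusted p 0.0426), and Fosl2 for E2F1 minus serum at 6 h under quantile normalization (0.35, adjusted p 0.0167). Members called for serum against doxycycline at 12 h thus ran from 3 to 6. The number of members called changed to 0 after 2 h of doxycycline in the EV line with only the groups compared, and to 1 for the line difference at 6 h under quantile normalization and with only the groups compared. For the lines at 0 h it was 1 with the replicate block, without the trend, with only the groups compared and without the 2 h doxycycline libraries. Leaving out single libraries gave 0 to 1 calls at 2 h of E2F1, 0 to 3 at 6 h and 2 to 3 at 12 h, 0 in the EV line at 2 h of doxycycline, 2 to 4 at 12 h of serum, 0 to 2 and 2 to 4 for the line difference at 6 and 12 h, 2 to 5 for E2F1 minus serum at 6 h, and 1 to 2 for the lines at 0 h. It moved the change at 6 h of E2F1 from -0.12 to 0.36 for Fosb and -0.20 to 0.49 for Fosl1, at 12 h of E2F1 from -0.55 to 0.0808 for Fosl1, at 2 h of EV doxycycline from -0.54 to 0.0364 for Jun and -0.0092 to 0.17 for Jund, at 6 h of serum from -0.93 to 0.27 for Fos and -0.20 to 0.38 for Jun, and at 12 h of serum from -0.0753 to 0.50 for Jun. The labels do not say that a replicate number marks a shared culture, and the libraries were not treated as paired. Deviations of same-numbered libraries correlated with r from -0.277 to 0.357 over 6 pairs of E2F1 groups and -0.161 to 0.455 over 21 pairs of EV groups. Among the 0, 6 and 12 h doxycycline groups r was 0.142 to 0.357 in the E2F1 line and 0.303 to 0.455 in the EV line, and pairs with a 2 h group were lower, at most 0.101. Among the 87 results the replicate block ended 1 call, Fosl1 between the lines at 0 h (adjusted p 0.0576), and added 1, Fosl2 at 12 h of serum (-0.19, adjusted p 0.0479). Of 94 list results picked by the naming rule 27 lost their call under at least 1 alternative and 0 reversed. The filter removed no gene, so leaving it out changed nothing. With 2 libraries a group and low values for Fos and Fosb, small changes of those genes were not detectable.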
